A study of Mus musculus with 59 samples.

Results

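The Polo-like kinase family of the mouse has 5 genes, *Plk1*, *Plk2*, *Plk3*, *Plk4*, and *Plk5*, which were followed here among the 54232 genes counted in 5 brain regions of spinocerebellar ataxia type 1 (SCA1) mice. The family was chosen by a measured result, the fall of *Plk5* in the cerebellum, hippocampus, striatum, and cortex of mutant mice, so that fall is described without a test. All 5 genes passed the filter on low counts in every region.

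The mice were 10 weeks old and are labelled C57BL/6, from lines backcrossed to C57BL/6J. WT mice carry normal *Atxn1*. *Atxn1* 154Q/2Q mice (154Q mice) carry 154 glutamines in the ataxin-1 encoded by 1 allele and 2 glutamines in the other, a knock-in made at the gene itself and so present in every cell that expresses it. The line here called 154Q-AXH, *Atxn1* 154Q[V591A;S602D]/2Q, carries on its expanded allele the further substitutions V591A and S602D, which stop ATXN1 from binding the transcriptional repressor Capicua (CIC). It was made by genome editing of the 154Q line and keeps a normal 2Q allele. Each genotype had 4 mice, each region and genotype had 1 library per mouse, so that separate mice are the replicates, and only the brainstem of 154Q-AXH mice had 3 libraries, giving 59 libraries.

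Polo-like kinases carry polo boxes, through which members such as PLK1 dock on phosphorylated partners, and most have an active kinase domain. PLK1 drives entry into and passage through mitosis, and PLK4 starts the duplication of centrioles, so both belong to dividing cells. PLK2 and PLK3 are induced by stress and, in neurons, by synaptic activity, and PLK2 phosphorylates synaptic proteins such as the spine protein SPAR (*Sipa1l1*). PLK5 is a divergent member known from the brain, where it has been linked to the outgrowth of neurites.

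Libraries held 28058359 to 112343574 counted read pairs, with medians of 85409276 in the cerebellum, 89555042 for brainstem, 83104958 for hippocampus, 35341804 for striatum, and 39662500 for cortex. *Atxn1* itself ranged from 33.1 to 99.7 CPM (counts per 1000000 counted read pairs, scaled by TMM over all 59 libraries) and cannot be split by allele. The hippocampal library of mouse 154Q-76 held 394 CPM of 12 brainstem marker genes in sum, against 1.91 to 4.68 CPM in the other hippocampal libraries, and both *Xist* (180 CPM) and *Ddx3y* (51.8 CPM). The cortical library labelled WT-221 had 483 CPM of *Xist* and 0.921 CPM of *Ddx3y*, while the other 4 libraries of that mouse had 0.399 to 5.99 and 73.0 to 159 CPM. In all their libraries, mice 154Q-75 and AXH-217 had 412 to 1153 CPM of *Xist* and 0.0564 to 1.26 CPM of *Ddx3y*. The WT libraries other than cortical WT-221 had 0.226 to 5.99 and 62.8 to 159 CPM. Read as sex, these levels place females in both mutant groups, and in WT only the cortical library in doubt. The *Xist* level used as a covariate below therefore stands for sex, which was not balanced between genotypes. The files of the cortical libraries 154Q-76 and AXH-207 carry each other's names, and the labels were followed. The striatal libraries differed in their content of striatal neurons, with 12 marker genes of spiny neurons summing to 2634 to 8477 CPM in WT, 1002 to 1758 CPM in 154Q, and 898 to 4960 CPM in 154Q-AXH mice. In WT cortex that sum was 340 to 432 CPM. Markers of excitatory forebrain neurons, which belong to the cortex and hippocampus, summed to 819 to 2161 CPM in WT striatum and 2297 to 2574 CPM in WT cortex, so the striatal libraries hold both kinds of marker. Libraries are listed below by rising mouse number within each genotype.

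The upstream sequence of *Plk5* is shown because *Plk5* is the gene that fell, and that of *Plk2* because it fell in the hippocampus of 154Q mice. These are the 250 bases before the RefSeq start site, 5′ to 3′ on the coding strand of GRCm38.p6, at chr10:80356209-80356458 (plus strand) for *Plk5* and chr13:110394794-110395043 (plus strand) for *Plk2*, with capitals for the motifs searched.
Plk5: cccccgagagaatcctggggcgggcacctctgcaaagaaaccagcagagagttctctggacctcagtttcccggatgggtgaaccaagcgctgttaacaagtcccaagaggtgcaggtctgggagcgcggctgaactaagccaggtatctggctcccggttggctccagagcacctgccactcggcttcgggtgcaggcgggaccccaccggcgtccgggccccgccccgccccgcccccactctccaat
Plk2: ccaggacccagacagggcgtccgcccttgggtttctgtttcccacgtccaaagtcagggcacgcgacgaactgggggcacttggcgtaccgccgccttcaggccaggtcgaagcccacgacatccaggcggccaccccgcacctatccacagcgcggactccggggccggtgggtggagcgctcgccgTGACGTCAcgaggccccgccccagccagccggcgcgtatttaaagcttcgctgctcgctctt

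The search covered the CIC octamers TGAATGAA and TGAATGGA, the cAMP response element TGACGTCA, the cell cycle homology region TTTGAA, and the RFX stretch GTTGCCATG, on both strands and in windows that also took in 50 bases after the start. No motif overlaps another. The *Plk5* window held none of the 5 motifs. The *Plk2* window held 1 cAMP response element, starting 62 bases before the start site, a motif found in 1.79% of all 32851 promoter windows. The *Plk1* window held 1 TTTGAA, 30 bases after its start, as did 17.9% of all windows, and the *Plk3* and *Plk4* windows held none. The CIC octamers, in 1.30% and 1.21% of all windows, and the RFX stretch, in 0.773%, were in no member's window. These matches describe the letters in these windows only. The upstream sequence was 65.6% G and C for *Plk5* and 68.4% for *Plk2*, above the upper quartile of 61.2% of all windows.

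*Plk5* lies at chromosome 10, 80356459 to 80365489 on the plus strand (GRCm38, GENCODE M21), with 13 blocks of exon that no other annotated gene overlaps. *Plk2* (chromosome 13, 110395046 to 110400844, plus strand) and *Plk4* (chromosome 3, 40800019 to 40816883, plus strand) also overlap no other gene. *Plk1* (chromosome 7, 122159439 to 122169873, plus strand) shares 156 exonic bases with the antisense gene *Gm44985*, and *Plk3* (chromosome 4, 117128655 to 117133963, minus strand) shares 84 with the antisense gene *Tctex1d4*. Reads in those stretches could not be assigned, because the counts used do not distinguish strands.

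In WT mice the family was dominated by *Plk2* in the forebrain and by *Plk5* in the cerebellum. Per kilobase of exon, which allows genes to be compared, *Plk2* had mean levels of 56.5 (hippocampus), 53.2 (striatum), and 49.9 (cortex) CPM per kb, while *Plk5* had 9.41, 9.15, and 6.52. In the cerebellum *Plk5* was at 25.4 CPM per kb, above *Plk2* at 6.60, *Plk3* at 3.46, *Plk4* at 0.751, and *Plk1* at 0.265. The brainstem had no such leader, with *Plk2* at 6.52, *Plk3* at 5.63, and *Plk5* at 3.07 CPM per kb. *Plk1* and *Plk4*, the members of dividing cells, stayed at or below 0.887 CPM per kb on average in every WT region.

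**Figure D1:**
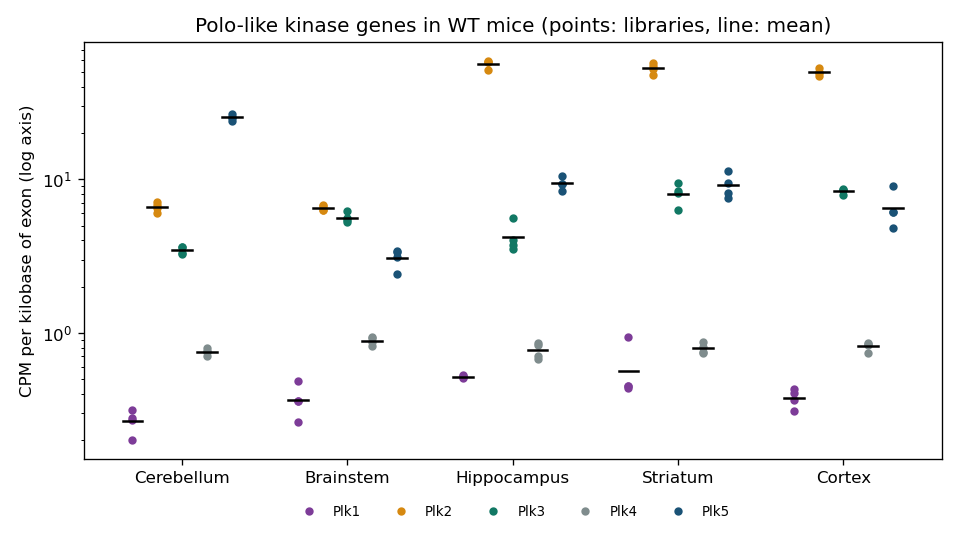
Level of each Polo-like kinase gene in WT mice, in CPM per kilobase of exon on a log axis, by brain region. Points are the 4 libraries of a region and lines their means. *Plk2* leads in the hippocampus, striatum, and cortex and *Plk5* in the cerebellum, at 25.4 CPM per kb.

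Between WT regions, 4 of the 5 members passed the F test for any difference (edgeR, adjusted p of 3.5e-20 for *Plk2*, 1.9e-12 for *Plk5*, 9.9e-09 for *Plk3*, and 0.00104 for *Plk1*), as did 91.6% of all genes tested. *Plk4* did not (adjusted p = 0.0819), although it did by the DESeq2 likelihood ratio test, and in edgeR without the mouse WT-221 or without its cortical library. The number of members called was 3 of 5 between cerebellum and brainstem (65.4% of all genes), 4 between cerebellum and hippocampus (63.6%), 4 between cerebellum and striatum (71.8%), and 3 between cerebellum and cortex (70.3%). It was 4 between brainstem and hippocampus (60.7% of all genes), 4 between brainstem and striatum (66.1%), and 3 between brainstem and cortex (65.1%). Within the forebrain it was 1 between hippocampus and striatum (58.2%), 3 between hippocampus and cortex (55.4%), and 1 between striatum and cortex (10.7%). As most genes differed between most pairs of regions, these counts are no result about the family.

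*Plk5* was highest in the cerebellum, with CPM values of 68.5, 64.3, 71.8, and 67.5, and lowest in the brainstem, with 6.50, 9.17, 8.30, and 8.95. The cerebellum exceeded the next region, the hippocampus, by 1.41 ± 0.14 log2 (SE, n = 4 mice, adjusted p = 3.2e-08). The hippocampus and striatum did not differ beyond their spread, at 0.04 ± 0.15 log2 (adjusted p = 0.82). The striatum exceeded the cortex by 0.51 ± 0.15 log2 (adjusted p = 0.0357), with libraries that overlapped, and the brainstem lay below the cortex (-1.06 ± 0.15, adjusted p = 4.3e-06).

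*Plk2*, by contrast, was at 27.2 to 31.8 CPM in the WT hindbrain and at 214 to 264 CPM in the WT forebrain, without overlap. Its mean in the hippocampus was 254 ± 15.7 CPM, that of the striatum 239 ± 17.1 CPM, and that of the cortex 224 ± 10.3 CPM (SD, n = 4), with only the step from hippocampus to cortex passing the test within the forebrain (0.20 ± 0.06 log2, adjusted p = 0.0107). Cerebellum and brainstem, at 29.6 ± 1.97 and 29.3 ± 1.19 CPM, did not differ beyond their spread (adjusted p = 0.98). The cerebellum lay 2.92 ± 0.07 log2 below the cortex (adjusted p = 2.8e-18).

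*Plk3* was highest in the cortex (21.2 ± 0.86 CPM) and striatum (20.4 ± 3.34), which did not differ beyond their spread (adjusted p = 0.85). It then stepped down to the brainstem (14.2 ± 1.05), the hippocampus (10.7 ± 2.39), and the cerebellum (8.76 ± 0.46), with adjusted p values of 0.00107, 0.00584, and 0.0385 for the 3 steps. *Plk1* had 0.583 ± 0.11 CPM in the cerebellum and 1.14 ± 0.02 in the hippocampus (adjusted p = 7.1e-04), and no neighbours in its order of regions passed the test. Its counts were 23 to 122 read pairs per library. *Plk4* had its lowest WT mean in the cerebellum (5.15 CPM) and its highest in the brainstem (6.08 CPM), and that pair passed the test (adjusted p = 0.0147), as did brainstem against hippocampus (adjusted p = 0.0439).

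*Plk5* in mutant mice is described first, without tests outside the brainstem. For the marker counts that follow, the shares of all genes called lower in 154Q mice were 6.71% (cortex), 0.4% (brainstem), 3.76% (striatum), 3.39% (hippocampus), and 3.12% (cerebellum). In 154Q-AXH mice they were 4.76% (cortex), 1.08% (striatum), 0.671% (hippocampus), and 1.13% (cerebellum). The shares called higher are given with the pathway lists below. In the cortex the CPM values were 24.1, 16.4, 12.9, and 16.4 in WT mice, 2.92, 2.71, 2.91, and 2.22 in 154Q mice, and 2.46, 2.35, 2.31, and 3.55 in 154Q-AXH mice. Every mutant cortex held less *Plk5* than every WT cortex. The log2 fold change was -2.69 ± 0.19 in 154Q and -2.69 ± 0.19 in 154Q-AXH mice, so *Plk5* fell by 84.5% in each. Of 12 astrocyte markers 8 were called lower in 154Q and 3 in 154Q-AXH cortex, with sums of 4208 to 4441 CPM in WT, 3408 to 3922 in 154Q, and 3595 to 3869 in 154Q-AXH mice. In 154Q mice 3 of these 12 were called lower in the brainstem, 3 in the striatum, and 0 in the hippocampus. Their median log2 changes there were -0.22, -0.32, and -0.17. Of 12 markers of excitatory forebrain neurons, 2 were called lower (*Slc17a7*, *Wfs1*) in 154Q cortex and 3 lower (*Cux2*, *Fezf2*, *Wfs1*) in 154Q-AXH cortex, with sums of 2297 to 2574, 1976 to 2110, and 2007 to 2162 CPM. The part of either list in the change of *Plk5* was not tested.

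In the striatum the WT values were 30.3, 21.8, 25.4, and 20.4 CPM, the 154Q values 4.06, 3.71, 3.32, and 4.496 CPM, and the 154Q-AXH values 2.84, 5.85, 7.51, and 4.75 CPM. Again no mutant library reached the WT range, with log2 fold changes of -2.67 ± 0.23 and -2.22 ± 0.23. *Plk5* fell by 84.2% and 78.6%, and the 154Q-AXH values spread on both sides of the 154Q values. The summed striatal markers given above were also lower in 154Q mice than in WT mice, with 1 of 12 (*Penk*) called lower and a median log2 change of -1.45, and their part in the change of *Plk5* was not tested.

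In the hippocampus *Plk5* stood at 24.9, 25.2, 22.6, and 28.1 CPM in WT mice, at 5.01, 4.48, 3.53, and 5.67 in 154Q mice, and at 6.83, 8.31, 7.65, and 14.1 in 154Q-AXH mice. The 3 groups did not overlap, and 154Q-AXH mice lay between the others. The log2 fold changes against WT were -2.40 ± 0.20 in 154Q and -1.47 ± 0.20 in 154Q-AXH mice. Without the mixed library of 154Q-76 the former was -2.53. Markers of excitatory forebrain neurons moved as well, with 3 of 12 called lower in 154Q mice (*Neurod2*, *Neurod6*, *Wfs1*) and 1 in 154Q-AXH mice (*Wfs1*). Their summed level was 1953 to 2220 CPM in WT, 949 to 1689 in 154Q, and 1641 to 1936 in 154Q-AXH mice, and their part in the change of *Plk5* was not tested.

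In the cerebellum, where *Plk5* is most abundant, the change was smaller. WT values of 64.3 to 71.8 CPM stood against 31.0, 37.4, 31.3, and 37.4 in 154Q mice and 56.0, 53.6, 42.4, and 54.6 in 154Q-AXH mice. The 3 groups were again separate, with log2 fold changes of -0.99 ± 0.08 and -0.41 ± 0.08, so that *Plk5* fell by 49.5% and 24.5%. Of 12 Purkinje cell markers, 8 were called lower in 154Q and 4 in 154Q-AXH mice, and their sum was 11139 to 12730 CPM in WT, 8950 to 9785 in 154Q, and 9959 to 10601 in 154Q-AXH mice. Of 12 granule neuron markers, 3 were called lower and 1 higher in 154Q mice, and 1 higher in 154Q-AXH mice, with sums of 6971 to 8184, 6889 to 7116, and 7355 to 7836 CPM. Of 12 astrocyte markers, 3 were called lower in 154Q (*Aldoc*, *Gdf10*, *Gja1*) and 1 in 154Q-AXH mice (*Gdf10*), with sums of 5814 to 6512, 5201 to 5568, and 5520 to 5780 CPM. The part of these markers in the change of *Plk5* was not tested, and in bulk tissue fewer cells of a type and less RNA per cell cannot be told apart.

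The brainstem was not among the regions whose fall chose the family. The choice was made with all regions in view, so tests there may not be independent of it. In the brainstem *Plk5* had 6.50, 9.17, 8.30, and 8.95 CPM in WT mice, 7.65, 5.65, 7.15, and 7.90 CPM in 154Q mice, and 6.92, 9.88, and 5.90 CPM in 154Q-AXH mice. The groups overlapped. Against WT the log2 fold change was -0.22 ± 0.16 in 154Q mice (95% interval -0.54 to 0.10, adjusted p = 0.70) and -0.13 ± 0.18 in 154Q-AXH mice (-0.48 to 0.21, adjusted p = 0.94). As *Plk5* is lowest in the WT brainstem, its order of regions differed in mutants. In 154Q mice the brainstem mean of 7.09 ± 1.01 CPM lay above the hippocampus (4.67 ± 0.91), the striatum (3.90 ± 0.50), and the cortex (2.69 ± 0.33).

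**Figure D2:**
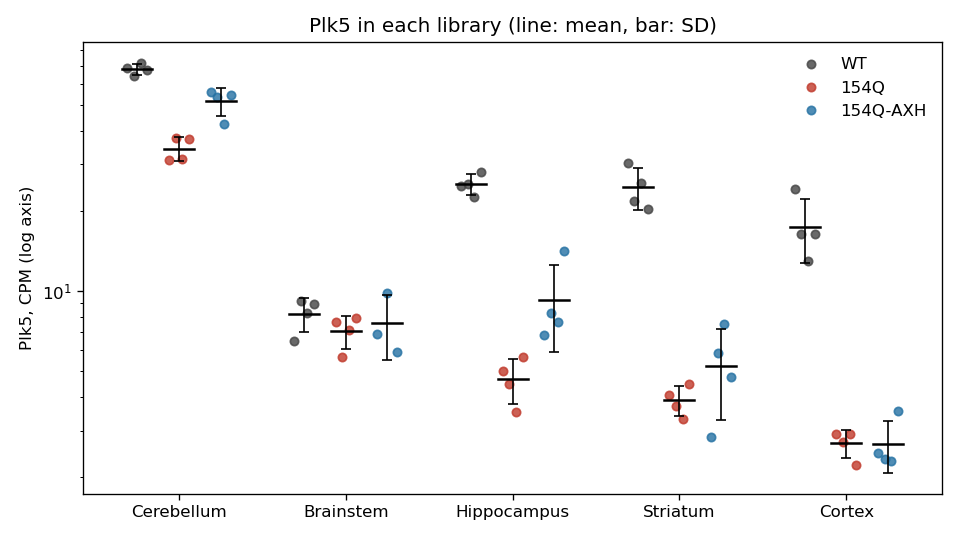
*Plk5* level in CPM (log axis) in each library, by region and genotype. Lines are means and bars SD over 4 mice (3 for 154Q-AXH in the brainstem). Mutant libraries lie below all WT libraries in the cerebellum, hippocampus, striatum, and cortex, and overlap them in the brainstem.

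Loss of CIC binding was examined by comparing 154Q-AXH with 154Q mice. For *Plk5* outside the brainstem this contrast uses the mutant libraries whose fall chose the family, so its values are a description without a test. In the cerebellum *Plk5* was 0.58 ± 0.08 log2 higher in 154Q-AXH than in 154Q mice (1.495-fold), with 4 of 4 libraries above every 154Q library, and the difference stayed between 0.54 and 0.66 log2 under the alternatives. In the hippocampus it was 0.94 ± 0.21 log2 higher, again without overlap. The striatal difference was 0.44 ± 0.24 log2 and the cortical one -0.01 ± 0.24, with libraries that overlapped. Under the alternatives these differences ran from 0.68 to 1.06 log2 in the hippocampus and from 0.22 to 0.65 in the striatum. In the cortex they ran from -0.18 to 0.46, so neither its sign nor its size was settled. In the brainstem, which was not among the regions whose fall chose the family, it was 0.08 ± 0.18 log2 (95% interval -0.27 to 0.43).

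Of *Plk1* to *Plk4* none was called by edgeR or DESeq2 between 154Q-AXH and 154Q mice in any region. Over all genes edgeR called 0.0335% in the cerebellum (7 of 20874) and 0% in each other region, where 1163 (brainstem), 2356 (hippocampus), 601 (striatum), and 1241 (cortex) genes had an unadjusted p under 0.05. *Plk3* had an unadjusted p under 0.05 in the cerebellum, hippocampus, and cortex, as had 7.6%, 11%, and 6.67% of all genes, and *Plk1*, *Plk2*, and *Plk4* had none.

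*Plk2* fell in the hippocampus. Its CPM values there were 261, 231, 259.9, and 264 in WT mice, 164, 176, 181, and 105 in 154Q mice, and 176, 183, 164, and 141 in 154Q-AXH mice. Every mutant library lay below every WT library, and the lowest value, 105 CPM, is the mixed library of 154Q-76. In 154Q mice *Plk2* fell by 37.6%, a log2 change of -0.68 ± 0.14 (adjusted p = 0.0164), and it was the 1 of *Plk1* to *Plk4* called there, where 2.52% of all genes were called higher and 3.39% lower. Without 154Q-76 it was -0.54 (adjusted p = 0.00473). The call was lost with the series of the mouse numbers, below 100 or above 200 (adjusted p = 0.0753), or the level of *Xist* (0.0566) in the model. The markers of excitatory forebrain neurons given for the hippocampus above were lower in the same libraries, and their part was not tested. In 154Q-AXH mice the change was -0.62 ± 0.14, which missed the threshold in the model of 3 genotypes (adjusted p = 0.0542) and passed it in DESeq2 (0.00173), with only the genotypes compared (0.0101), or without 154Q-76 (0.00216). None of *Plk1* to *Plk4* was called by edgeR in that contrast, where edgeR called 0.629% of all genes higher and 0.671% lower. *Plk2* and *Plk3* (2 members) had an unadjusted p under 0.05 in edgeR, as had 14.9% of all genes. DESeq2 called *Plk2* alone, and its share over all genes is not given here.

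The effect of genotype on *Plk2* differed between the 5 regions in both mutants (interaction over 59 libraries, edgeR adjusted p = 5.0e-05 for 154Q and 0.00163 for 154Q-AXH). Outside the hippocampus the 154Q changes were 0.16 ± 0.05 (cerebellum), 0.09 ± 0.07 (brainstem), -0.19 ± 0.07 (striatum), and -0.10 ± 0.07 (cortex), none of which passed the test. The corresponding values in 154Q-AXH mice were 0.13 ± 0.05, 0.08 ± 0.07, -0.22 ± 0.07, and -0.15 ± 0.07, and the last passed the test without AXH-207 (adjusted p = 0.0397). Of *Plk1* to *Plk4*, 2 had such an interaction for 154Q (6.65% of all genes) and 1 for 154Q-AXH (1.33% of all genes).

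*Plk3* fell in the cortex of 154Q-AXH mice. The CPM values were 21.5, 21.8, 19.9, and 21.6 in WT mice, 19.96, 21.0, 16.1, and 15.6 in 154Q mice, and 14.0, 13.8, 17.9, and 16.2 in 154Q-AXH mice. All 154Q-AXH libraries lay below all WT libraries, while the 154Q libraries overlapped with WT. In 154Q-AXH mice *Plk3* fell by 26.8%, a log2 change of -0.45 ± 0.10 (adjusted p = 0.0142), the 1 call among *Plk1* to *Plk4* in a contrast where 2.39% of all genes were called higher and 4.76% lower. It no longer passed the test without AXH-207 (adjusted p = 0.0552), without AXH-209 (0.0531), without the libraries in doubt (0.111), or with the number series in the model (0.107). In 154Q mice it was -0.22 ± 0.10 (adjusted p = 0.20), and none of *Plk1* to *Plk4* was called in 154Q cortex (4.4% of all genes higher, 6.71% lower), with 1 of them (*Plk3*) at an unadjusted p under 0.05, as were 25.3% of all genes, and none by DESeq2. The 154Q-AXH and 154Q cortex were not shown to differ in *Plk3* (-0.23 ± 0.10, adjusted p = 0.74).

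In the striatum none of *Plk1* to *Plk4* was called by edgeR, against 1.91% of all genes higher and 3.76% lower in 154Q mice and 0.277% higher and 1.08% lower in 154Q-AXH mice. *Plk2*, *Plk3*, and *Plk4* had an unadjusted p under 0.05 in both contrasts, 3 of 4 members each, where 23.6% and 12.6% of all genes did. *Plk4*, the centriole kinase, had 5.15, 5.52, 6.01, and 5.05 CPM in WT, 6.78, 7.21, 6.61, and 7.61 in 154Q, and 6.92, 6.68, 8.67, and 7.53 in 154Q-AXH striatum. All mutant values were above all WT values, with log2 changes of 0.36 ± 0.11 (adjusted p = 0.0665) and 0.45 ± 0.11 (adjusted p = 0.0649). DESeq2 called both (adjusted p = 0.0250 and 0.00929), and edgeR called the former without AXH-217 (0.0437) and the latter without WT-220 (0.0353).

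*Plk3* in the striatum had WT values of 20.6, 21.1, 15.9, and 24.0 CPM and 154Q-AXH values of 14.2, 11.5, 13.3, and 14.6 CPM. These did not overlap, with a change of -0.61 ± 0.16 log2 (adjusted p = 0.0948), which DESeq2 called (0.0169) and edgeR called without WT-220 (0.0223). The 154Q values of 18.4, 18.9, 12.3, and 13.4 CPM overlapped with WT (-0.38 ± 0.16, adjusted p = 0.17). The effect of 154Q on *Plk4* differed between regions (adjusted p = 0.0180), from -0.15 ± 0.07 log2 in the cerebellum to 0.36 in the striatum. That call was lost without filtering (adjusted p = 0.0554) and without the mouse WT-221 (0.112), 154Q-71 (0.0691), or 154Q-76 (0.0585). For 154Q-AXH it did not pass in edgeR (adjusted p = 0.13) and did in DESeq2 (0.0215). The interaction of *Plk3* did not pass for either mutant (adjusted p = 0.31 and 0.23).

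In both hindbrain regions none of *Plk1* to *Plk4* was called in either mutant by edgeR or DESeq2. At an unadjusted p under 0.05 there were 2 in 154Q cerebellum (*Plk2* and *Plk4*), 1 in 154Q-AXH cerebellum (*Plk2*), and none in the brainstem, where 18%, 15.1%, 10.9% (154Q brainstem), and 6.73% (154Q-AXH brainstem) of all genes had one. Over all genes, 2.1% were called higher and 3.12% lower in 154Q cerebellum, 1.08% and 1.13% in 154Q-AXH cerebellum, 0.138% and 0.4% in 154Q brainstem, and 0% (610 genes at an unadjusted p under 0.05) and 0.0138% in 154Q-AXH brainstem. *Plk1*, the mitotic kinase, was called in no region or contrast, with log2 changes against WT from -0.37 to 0.21 and SE from 0.12 to 0.34. In the hippocampus its 154Q values of 0.883 to 0.957 CPM lay below the WT values of 1.11 to 1.16 CPM, at -0.27 ± 0.12 log2 (adjusted p = 0.21).

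**Figure D3:**
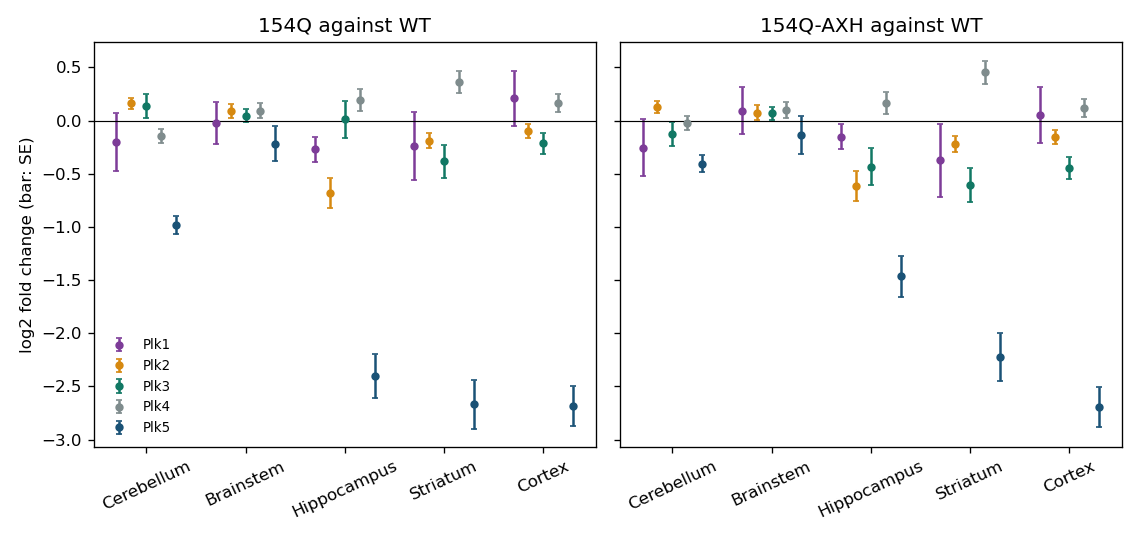
Log2 fold change against WT of each Polo-like kinase gene in 154Q (left) and 154Q-AXH mice (right), by region, with bars for the SE of the edgeR fit. *Plk5* lies between -2.22 and -2.69 in the striatum and cortex of both mutants, and the other members lie between -0.68 and 0.45.

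**Figure D4:**
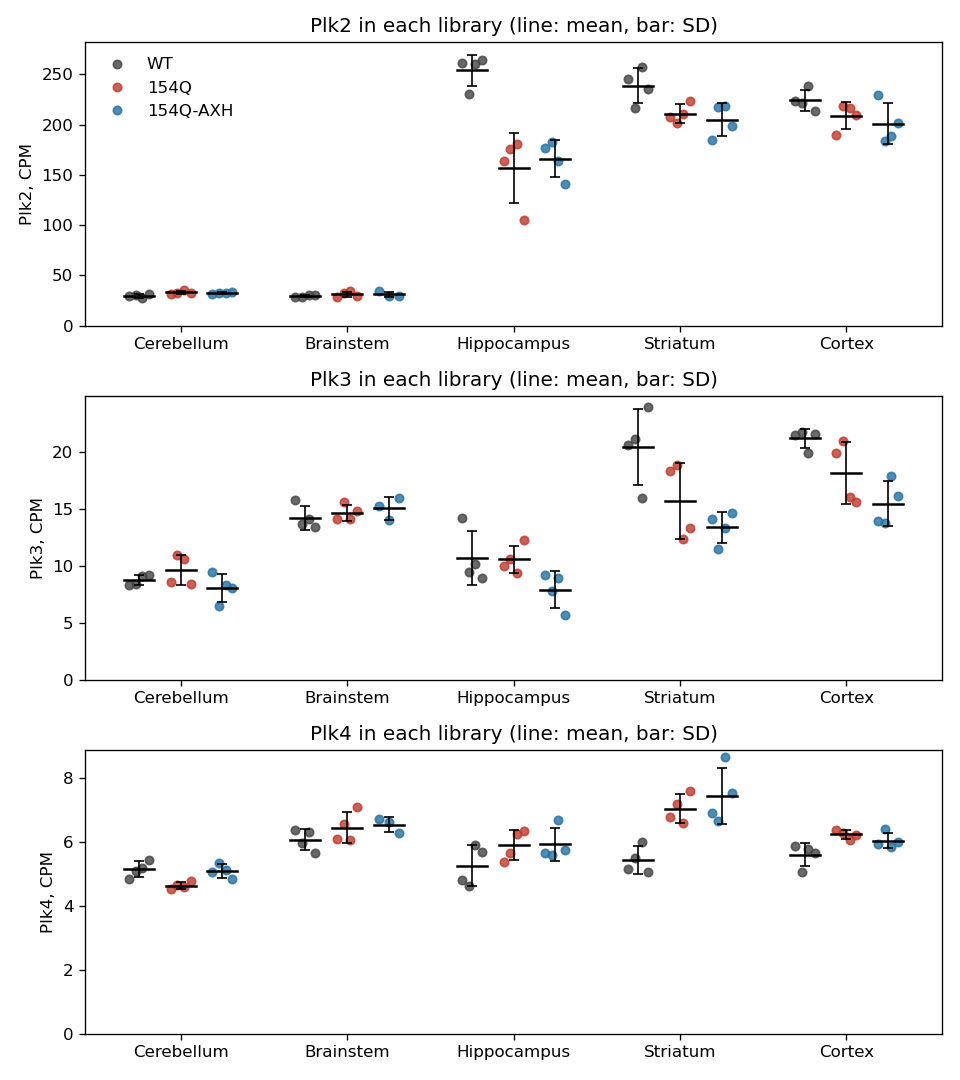
*Plk2*, *Plk3*, and *Plk4* in each library, in CPM from 0, by region and genotype, with lines for means and bars for SD over 4 mice (3 for 154Q-AXH in the brainstem). Mutant *Plk2* libraries lie below all WT libraries in the hippocampus and mutant *Plk4* libraries above all WT libraries in the striatum.

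The pathways around the kinases were described by 5 lists, which were drawn up with earlier results of these data known and given as counts without a test of the list. Beside them, the shares of all genes called higher and lower in 154Q mice were 2.1% and 3.12% (cerebellum), 0.138% and 0.4% (brainstem), 2.52% and 3.39% (hippocampus), 1.91% and 3.76% (striatum), and 4.4% and 6.71% (cortex). In 154Q-AXH mice they were 1.08% and 1.13%, 0% and 0.0138%, 0.629% and 0.671%, 0.277% and 1.08%, and 2.39% and 4.76%. Of the activity-induced genes, the class in which *Plk2* was described in neurons, those that were called in the forebrain were called lower. In 154Q mice those called lower were 5 of 25 (hippocampus), 10 of 25 (striatum), and 8 of 25 (cortex), none were called higher, and none of the 24 or 25 tested were called in the hindbrain regions. Their median log2 change was -0.50, -0.64, and -0.48 in the 3 forebrain regions, beside medians of 0.02, -0.01, and 0.01 over all genes. In 154Q-AXH mice 6, 11, and 11 were called lower in those regions, 2 in the cerebellum (*Bdnf* and *Sik1*), and none in the brainstem. *Bdnf*, a neurotrophin, had 45.5 ± 3.65 CPM in WT cortex, 27.9 ± 1.77 in 154Q, and 30.1 ± 1.57 in 154Q-AXH cortex (log2 changes of -0.70 ± 0.07 and -0.59 ± 0.07, adjusted p of 1.5e-05 and 7.6e-05). *Homer1*, a scaffold of glutamate receptors, went from 248 ± 32.9 to 141 ± 6.10 and 145 ± 18.9 CPM in the cortex (-0.81 ± 0.09 and -0.77 ± 0.09, adjusted p of 6.2e-05 and 1.1e-04).

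Of 21 synaptic substrates and partners of PLK2, 4 were called lower in 154Q hippocampus (*Camk2a*, *Dlg4*, *Gria1*, and *Hras*), 2 lower and 1 higher in the striatum, and 8 lower and 1 higher in the cortex. In 154Q-AXH mice 0, 1, and 4 were called lower in these regions. The median log2 change of the list in 154Q mice was -0.15 (hippocampus), -0.11 (striatum), and -0.10 (cortex). *Sipa1l1* was called lower in the cortex of both mutants. *Dlg4*, which encodes the scaffold PSD-95, had 680 ± 14.3 CPM in WT striatum, 518 ± 12.8 in 154Q, and 548 ± 17.0 in 154Q-AXH striatum (-0.40 ± 0.06 and -0.31 ± 0.06 log2, adjusted p of 0.00174 and 0.0172).

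Of 20 p53-induced genes, the class to which *Plk2* and *Plk3* belong, 4 were called lower in 154Q striatum, 4 lower and 1 higher in the cortex, 1 higher in the hippocampus, 1 lower in the cerebellum, and none in the brainstem. In 154Q-AXH mice 2 were called lower in the striatum, 3 in the cortex, and none elsewhere. The list's median log2 change in 154Q mice was -0.14 (striatum) and -0.12 (cortex). *Cdkn1a*, the cell cycle inhibitor p21, fell in the cortex from 33.2 ± 3.08 to 13.5 ± 2.44 CPM in 154Q and 12.2 ± 1.71 in 154Q-AXH mice (-1.29 ± 0.12 and -1.44 ± 0.12 log2, adjusted p of 9.4e-06 and 6.3e-06). *Gadd45a*, a growth arrest gene, fell there by 0.98 ± 0.16 and 0.88 ± 0.16 log2 (adjusted p of 0.00119 and 0.00367).

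Centriole duplication genes, the partners of PLK4, were called in 0 to 4 of 19 per region in 154Q mice. These were 2 higher in the hippocampus (*Cep135* and *Stil*), 1 higher in the striatum (*Stil*), 4 higher in the cortex (*Cep120*, *Cep152*, *Cep97*, and *Stil*), and 1 lower in the cerebellum (*Tubg1*). In 154Q-AXH mice 1 was called, *Cep97* in the cortex. The list's median log2 change in 154Q mice was 0.11 (hippocampus), 0.14 (striatum), 0.08 (cortex), and -0.03 (cerebellum). *Stil*, which assembles the procentriole with PLK4, went from 0.561 ± 0.11 CPM in WT to 1.36 ± 0.10 in 154Q striatum (1.25 ± 0.21 log2, adjusted p = 0.00570), with 1.09 ± 0.30 CPM in 154Q-AXH mice (adjusted p = 0.0707). *Tubg1*, γ-tubulin, fell by 0.21 ± 0.05 log2 in 154Q cerebellum (adjusted p = 0.0186).

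Mitotic partners of PLK1 were called in both directions. Of 29 or 30 tested in 154Q mice, 1 was higher and 1 lower in the cerebellum, 2 were lower in the hippocampus, and 3 were higher and 1 lower in the cortex, with none called in the brainstem or striatum. In 154Q-AXH mice 1 was called lower in the cerebellum and 1 in each direction in the cortex. The list's medians in 154Q mice lay between -0.07 and 0.04 log2. *Incenp*, a subunit of the chromosomal passenger complex, had 23.5 ± 1.09 CPM in WT, 16.1 ± 1.08 in 154Q, and 16.3 ± 1.19 in 154Q-AXH cortex (-0.54 ± 0.07 and -0.52 ± 0.07 log2, adjusted p of 1.6e-04 and 2.6e-04). *Cdc25b*, a phosphatase of mitotic entry, fell by 0.55 ± 0.12 log2 in 154Q hippocampus (adjusted p = 0.0207).

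The genes whose pattern was most like that of *Plk5* were ranked by Pearson's r over the 59 libraries, on log2 CPM values after the mean of each region was removed, among 17540 genes. These points share mice, libraries, and genotype, so r is a description. The 5 highest were *Lzts3* (r = 0.902), which encodes a postsynaptic protein, *Sec14l1* (0.898), *Hipk4* (0.886), the erythropoietin receptor gene *Epor* (0.869), and *Gpd1* (0.863), a glycerol-3-phosphate dehydrogenase gene. By Spearman's rho, 3 of these 5 stayed among the top 5. Their 154Q changes were smaller than that of *Plk5* in each of the 4 regions where it fell. In the cortex they ranged from -0.57 (*Sec14l1*) to -1.20 log2 (*Epor*), and in the cerebellum only *Epor* approached *Plk5*, at -0.65 log2, while *Lzts3* was at 0.01.

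**Figure D5:**
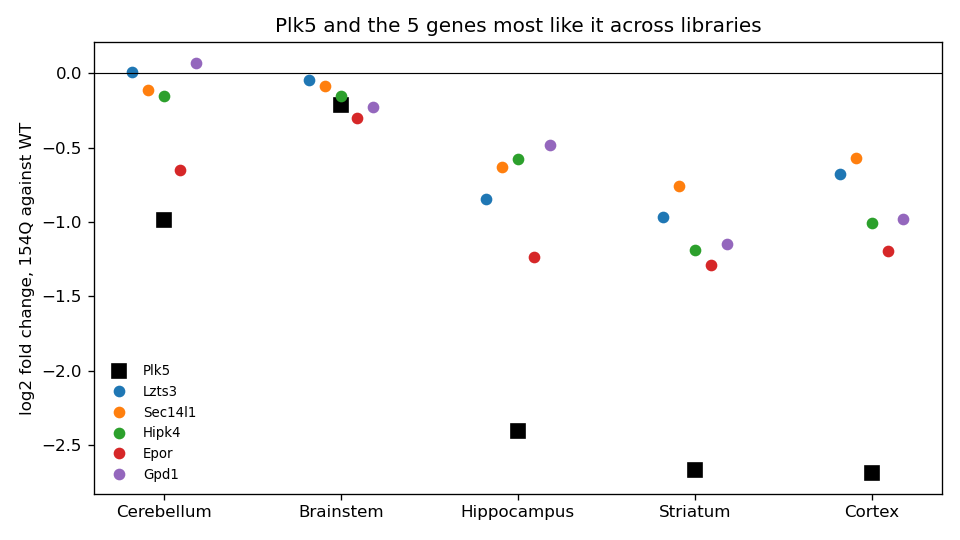
Log2 fold change of 154Q against WT for *Plk5* (squares) and the 5 genes with the highest r with it (circles), by region. In the cortex *Plk5* is at -2.69 and the other genes between -1.20 and -0.57.

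For *Plk2* the 3 highest were *Rasgrp1* (r = 0.793), an activator of Ras, the plasma membrane calcium pump gene *Atp2b1* (0.778), and *2010300C02Rik* (0.766). By Spearman's rho these genes ranked 399, 23, and 75, so none of the 3 stayed among the top 3. The 59 libraries include the mixed one of 154Q-76, which had the lowest *Plk2* in the hippocampus, and its part in r was not tested. Like *Plk2*, all 3 had a lower mean in mutant than in WT hippocampus, with *Rasgrp1* at 701 CPM in WT, 398 in 154Q, and 435 in 154Q-AXH mice.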

How the data were processed

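RNA-seq counts of 59 libraries of 12 mice were analyzed, 1 library per mouse and region. Per the labels and the methods, the authors trimmed paired reads with Trimmomatic 0.36, aligned them with STAR 2.7.2d to GRCm38.p6 with GENCODE M18, and deposited whole counts of read pairs per gene, without normalization. Of these, the counts that ignore strand were taken, after removal of 4 summary entries and of 1 entry named for a human gene. Symbols were matched by Ensembl ID (54079 of 54232 genes). Positions and exon lengths come from GENCODE M21.

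For each region, genes were kept by filterByExpr, libraries were scaled by TMM, and the 3 genotypes were fitted in 1 edgeR 4.0.16 quasi-likelihood model (R 4.3.3). WT regions and the interaction of genotype and region were fitted likewise. Calls are at a Benjamini-Hochberg adjusted p under 0.05 over all genes tested. Shares of all genes called are those of edgeR, and none is given for DESeq2. SE is the absolute log2 fold change over the square root of F, and intervals are Wald intervals. No p is given for *Plk5* between genotypes outside the brainstem, nor for its interaction, since its fall chose the family. The members and lists were chosen with earlier results of these data known. Genes named are the 5 members, the 5 genes most like *Plk5* and 3 most like *Plk2*, up to 2 genes per list with the smallest p among those called in 154Q mice, and library checks, and some results for single genes are not reported here. Other called genes are named where a count is small or a single gene stands out, and were chosen after their values were seen.

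Alternatives were DESeq2 1.42.0, its size factors in edgeR, no filter, only the genotypes compared, mouse number series (below 100 or above 200), *Xist* or *Ttr* level as a covariate, counts of 1 strand, the cortical pair exchanged or left out, each library or mouse left out, and mouse as a block. Leaving out the 4 libraries in doubt (hippocampal 154Q-76, cortical WT-221, 154Q-76, and AXH-207) was chosen after the data were seen. The mouse gives the pairing between regions, and over 116 pairs of libraries of 1 mouse the deviations from group means had a median correlation of 0.0628. Simulated data were used for 154Q against WT in the cerebellum (edgeR and DESeq2), for WT regions, and for the interaction without blocks. The simulation gave every gene of a fit the same dispersion and drew libraries independently. Other regions, 154Q-AXH contrasts within a region, covariate and block models, and the likelihood ratio test were not simulated.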

Additional observations from a re-analysis of the deposited data

Results flagged for a closer look

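In 70 groups of 4 libraries, 6 had 1 library far from the other 3 by Dixon's criterion, where chance alone gives about 1 in 20 such groups. These were *Plk1* in the striatum of WT-220 (2.05 CPM, others 0.962 to 0.989), *Plk1* in the hippocampus of AXH-207 (0.952 CPM, others 1.05 to 1.07), and *Plk2* in the hippocampus of WT-77 (231 CPM, others 259.9 to 264). The others were *Plk3* in the cortex of WT-220 (19.9 CPM, others 21.5 to 21.8), *Plk4* in the hippocampus of AXH-217 (6.68 CPM, others 5.61 to 5.76), and *Plk5* in the cortex of AXH-218 (3.55 CPM, others 2.31 to 2.46). WT-220 is also the striatal library without which *Plk3* and *Plk4* were called in 154Q-AXH striatum.

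The effect of genotype differed between regions, by the interaction test, for *Plk2* in 154Q mice (adjusted p = 5.0e-05), for *Plk2* in 154Q-AXH mice (adjusted p = 0.00163), and for *Plk4* in 154Q mice (adjusted p = 0.0180).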

How the results depend on the processing

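The 8 log2 changes of *Plk5* given without a test kept their sign, and moved by less than the spread between replicates, under all 168 alternative values, from -2.91 to -2.45 in the cortex, -2.76 to -2.01 in the striatum, -2.55 to -1.35 in the hippocampus, and -1.04 to -0.33 in the cerebellum. As these changes in the same libraries chose the family, that steadiness describes the processing and is no support for the fall. Of 64 alternative values of the 3 member changes past the threshold, 13 no longer passed the test and none changed sign. These 3 include cerebellar *Plk5* between the mutants, which is no support since its mutant libraries chose the family. Of 1275 values of changes that were not called, 14 passed, and 61 had the other sign without being called.

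Of *Plk1* to *Plk4* against WT, 1 call was made in 154Q and 1 in 154Q-AXH mice over the 5 regions. DESeq2 gave 2 and 4, and the mouse number series as a covariate gave 0 and 0. The *Xist* covariate gave 0 in 154Q mice. DESeq2 size factors, no filter, and only the genotypes compared gave 2, 2, and 2 in 154Q-AXH mice. Leaving out 1 library gave 1 to 2 calls in 154Q and 0 to 3 in 154Q-AXH mice. For 154Q-AXH against 154Q mice the count of 1 was cerebellar *Plk5*, which is no support since its mutant libraries chose the family, and it became 2 with DESeq2, 0 with the mouse number series, 0 with 1 strand, and 0 to 1 without a library. The interaction calls for 154Q (2) became 1 with no filter and 1 to 2 without a mouse, and those for 154Q-AXH (1) became 2 with the DESeq2 likelihood ratio test. With mouse as a replicate block, the paired analysis gave 2 and 1 interaction calls and 4 members differing between WT regions, which changed no call.

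The *Plk5* brainstem change stayed uncalled, with values from -0.32 to -0.12 in 154Q and from -0.38 to 0.03 in 154Q-AXH mice.

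For the lists, counts are called genes summed over regions. The mouse number series gave, in 154Q mice, 1 mitotic call (from 8), 5 centriole calls (from 8), 13 activity calls (from 23), 6 synaptic calls (from 17), and 3 p53 calls (from 11), and in 154Q-AXH mice 3 centriole calls (from 1) and 3 synaptic calls (from 6). DESeq2 gave 14 centriole calls in 154Q mice, and in 154Q-AXH mice 7 mitotic (from 3) and 4 centriole calls. In 154Q mice no filter gave 5 centriole calls, only the genotypes compared gave 4 centriole and 6 p53 calls, 1 strand gave 5 mitotic and 4 centriole calls, and leaving out the libraries in doubt gave 5 mitotic and 4 centriole calls. In 154Q-AXH mice centriole calls were 2 with only the genotypes compared and with the *Xist* covariate, and 0 with no filter, the *Ttr* covariate, the cortical pair exchanged or left out, or the libraries in doubt left out. Without 1 library, centriole calls were 5 to 9 in 154Q and 0 to 2 in 154Q-AXH mice, mitotic calls 5 to 9 in 154Q mice, and p53 calls 3 to 7 in 154Q-AXH mice.

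With 4 mice per group, all 154Q mice in the lower and all 154Q-AXH mice in the higher number series, genotype and series can be separated only through the WT mice. *Plk1*, at 23 to 122 counts per library, allows no finer statement than its SE. The stranded counts hold about equal shares, so overlap with antisense genes cannot be resolved for *Plk1* and *Plk3*.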
